A study of Mus musculus with 8 samples.

Results

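The cytosolic ribosomal protein genes were followed through a knockdown of the translation initiation factor Eif4g3, with total RNA and the RNA of heavy polysomes measured side by side. Members were the non-control probes whose gene name began with Rpl or Rps and a digit, or was Rplp0, Rplp1, Rplp2, Rpsa or Fau, without the S6 kinases. This gave 138 probes of 83 names among 41174 probes. They comprise 49 names of the large subunit, 33 of the small subunit and Rps19bp1, a nucleolar protein that binds a ribosomal protein but is not one. After a filter on signal above background 82 of the 83 names were tested, 48 large and 33 small. The untested name was Rpl3l, a muscle paralogue of Rpl3, which was not well above background in either channel on any array.

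Cultured stromal cells from BALB/c lymph nodes were transfected with 400 pmol of siRNA, against Eif4g3 or a control, and harvested 48 h later. The 4 groups were control siRNA total RNA, Eif4g3 siRNA total RNA, control siRNA heavy polysome RNA and Eif4g3 siRNA heavy polysome RNA. Each fraction was measured on 4 arrays with 2 colours, with Eif4g3 siRNA always in Cy5 and control siRNA always in Cy3. Polysome cells were pooled before the sucrose gradient and 7 plates were used per siRNA. The labels do not state whether replicates were separate cultures, so p-values measure the spread between these samples, which may be technical.

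A ribosome is built from a large and a small subunit, each made of ribosomal RNA and many proteins, and the proteins must be made in matched amounts. Their mRNAs are abundant and most begin with a 5′ terminal oligopyrimidine tract (TOP), a C followed by a run of C and T, through which growth signals move them as a group between polysomes and untranslated particles. Eif4g3 encodes a scaffold that links the cap-binding protein to the RNA helicase and to the small subunit during initiation. Heavy polysome RNA comes from transcripts that carry many ribosomes, and short coding sequences have room for fewer of them.

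The 5′ ends of 9 member genes are printed: the 6 with the lowest and the 3 with the highest heavy polysome minus total RNA difference in control cells, among genes with a RefSeq entry. Rps29, the lowest of all members, had no entry. Each sequence runs from 25 bases before to 25 bases after a RefSeq start on GRCm38.p6, 5′ to 3′ on the gene's strand. Where several starts were annotated, the first listed with a run of C and T in these bases was printed, otherwise the first listed. Capitals mark the first C followed by at least 6 bases that are each C or T, wherever it lies. For Rpl39 and Rps27l this run ends before the start, so it is not the 5′ end of an mRNA from that start.
Rplp0, chr5:115559442-115559491, plus strand: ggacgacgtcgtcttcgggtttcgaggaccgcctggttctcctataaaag
Rpl41, chr10:128549144-128549193, minus strand: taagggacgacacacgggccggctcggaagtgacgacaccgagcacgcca
Rpl39, chrX:37085198-37085247, minus strand: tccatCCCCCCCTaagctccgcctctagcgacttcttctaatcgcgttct
Rps27l, chr9:66946061-66946110, plus strand: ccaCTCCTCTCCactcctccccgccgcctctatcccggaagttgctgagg
Rps28, chr17:33824538-33824587, minus strand: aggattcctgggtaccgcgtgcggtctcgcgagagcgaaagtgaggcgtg
Rps21, chr2:180257354-180257403, plus strand: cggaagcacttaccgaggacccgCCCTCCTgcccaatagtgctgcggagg
Rps9, chr7:3704016-3704065, plus strand: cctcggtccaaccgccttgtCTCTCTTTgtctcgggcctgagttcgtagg
Rps10, chr17:27635220-27635269, minus strand: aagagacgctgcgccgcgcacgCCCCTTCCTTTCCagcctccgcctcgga
Rps3, chr7:99483685-99483734, minus strand: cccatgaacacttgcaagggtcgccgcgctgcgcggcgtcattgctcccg

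The same run of C and T was searched on the gene's strand, and not on the other, from 20 bases before to 50 bases after every annotated start, and could overlap other motifs. Such a run may lie before the start or within the transcript, so it does not by itself mark a TOP. RefSeq held an entry for 63 of the 83 names, and 49 of these (77.8%) had the run at one start or more, against 32.9% of 27025 genes. The share was 83.8% of 37 large subunit names and 72.0% of 25 small subunit names. No run was found in the searched windows of Rplp0, Rps28 and Rps3, and that of Rpl41 lay outside the bases printed. The 48 tested members with the run had a median heavy polysome minus total RNA difference of -0.15 in control siRNA cells and -0.34 in Eif4g3 siRNA cells on the log2 scale. For the 14 without it these medians were -0.12 and -0.42.

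Eif4g3 itself was lower after its siRNA, with a log2 ratio of -2.07 ± 0.29 (SD, n = 4 arrays) for total and -2.46 ± 0.50 for heavy polysome RNA (limma adjusted p = 0.00202 and 6.17e-04). Of 12 stromal markers 9 were well above background in both channels on all 8 arrays, among them Pdgfra, Col1a1 and Thy1, while the lymph node chemokines Ccl21a and Cxcl13 were on none. Of 4 endothelial markers 2, Pecam1 and Lyve1, were not well above background on any array, and the others were on some but not all arrays. Of 4 lymphocyte markers 2, Ptprc and Cd79a, were on none, while Cd3e was in control siRNA on 6 of 8 arrays. No marker of either list was well above background on all 8 arrays in both channels. Of 8 macrophage markers 5 were well above background on all arrays (Cd68, Csf1r, Lyz2, Trem2 and Spp1), and Adgre1, Itgam and Fcgr1 were on none. The summed signal of these 5 markers was lower in Eif4g3 siRNA than in control siRNA on every array, with the dyes never swapped. On the log2 scale it ranged from 14.71 to 16.55 in control siRNA total RNA and from 12.69 to 15.40 in Eif4g3 siRNA total RNA. The ranges for heavy polysome RNA were 15.74 to 16.25 and 13.15 to 15.48. Of 10 stromal markers tested Col1a2 was lower in total RNA (-0.46 ± 0.28, adjusted p = 0.0493), where 2.69% of all genes were. In heavy polysome RNA Col1a1, Col1a2, Pdgfra and Pdgfrb were lower (-0.67 to -0.42), where 4.02% of all genes were. None was called higher, but 3 of the 10 lay above 0 in total RNA (up to 0.71) and 5 in heavy polysome RNA (up to 0.55). The summed stromal signal ranged from 17.54 to 17.97 in control siRNA and from 17.36 to 17.93 in Eif4g3 siRNA over both fractions. The part of either marker list in the results on ribosomal protein genes was not tested, and in such bulk samples fewer cells of a type and less RNA per cell cannot be told apart. No spot was saturated, and member spots were bright, with 69 of the 82 tested members above the 95th percentile of spot brightness.

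Heavy polysome array 1 stood apart from the rest for these genes. It also had the fewest probes well above background in the control siRNA channel, 37.6% against 45.5% to 57.5% on the other arrays. The median log2 ratio of the members, Eif4g3 siRNA over control siRNA, was 0.14, 0.27, 0.18 and 0.10 over the total RNA arrays in order. The heavy polysome arrays gave -0.56, 0.31, 0.05 and 0.25. Members were thus above 0 on the median on 7 of 8 arrays and below 0 on heavy polysome array 1, where 12 of the members had a ratio above 0. Heavy polysome arrays 2 and 4, on different slides, resembled each other closely, with a correlation across genes of 0.88 against 0.16 to 0.46 for the other 5 pairs of that fraction. Results are therefore also given without array 1, and with arrays 2 and 4 averaged as 1 sample. The share of all genes called also moved between refits, in total RNA from 4.36% to 9.14% without heavy polysome array 1. A changed count of called members is therefore not by itself read as a change in the members. Each slide carried arrays of 1 fraction, so slide and fraction cannot be told apart.

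**Figure D1:**
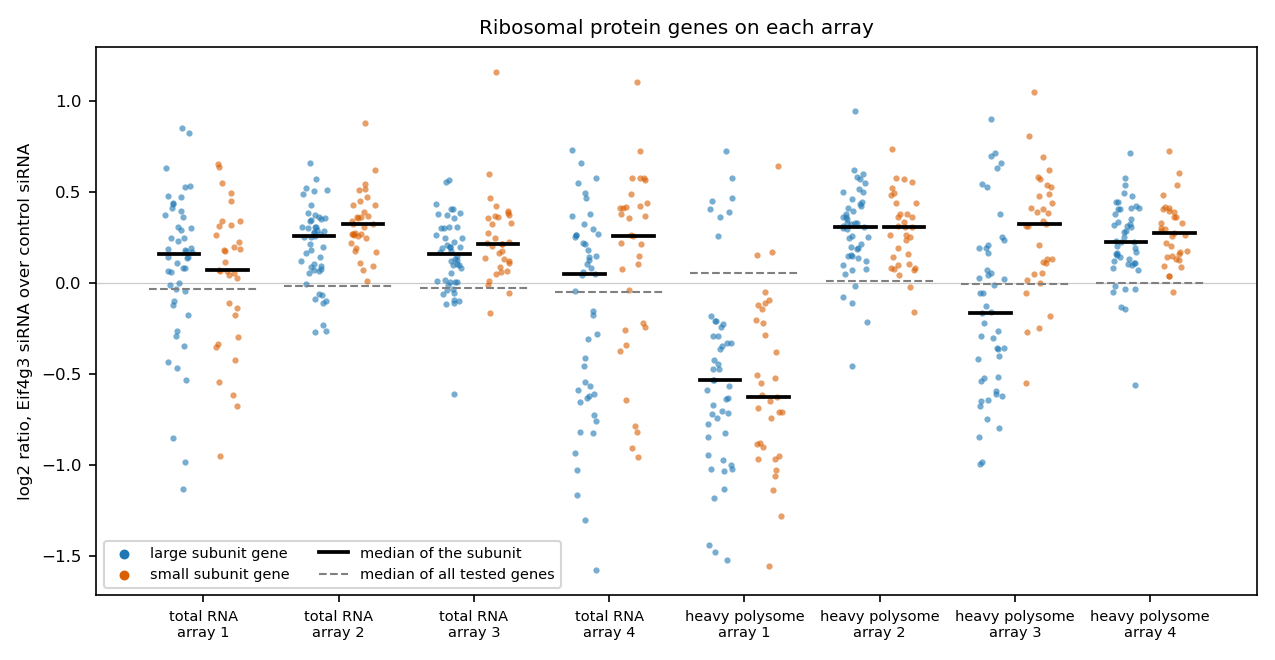
Each point is a ribosomal protein gene, with the log2 ratio of Eif4g3 siRNA over control siRNA on the vertical axis and the 8 arrays along the horizontal axis. Black bars are subunit medians and dashed lines the median of all tested genes; heavy polysome array 1 has member medians of -0.53 (large) and -0.63 (small), and on heavy polysome array 3 the subunits lie at -0.16 (large) and 0.32 (small).

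In total RNA the knockdown was followed by a higher level of 1 ribosomal protein gene, Rpl41, and by a lower level of none. Among the 14485 genes tested 4.36% were called, 1.67% higher and 2.69% lower, so 1 member of 82 is not more than the background. It was 0 without total RNA array 2, 3 or 4 or without polysome array 2 or 4. Without polysome array 1, which enters the shared estimate of the spread, it was 5 of 81, with Rpl41, Rps27l, Rps28 and Rps7 higher and Rpl4 lower, where 9.14% of all genes were called. With the total RNA arrays fitted on their own Rpl41 was not called (adjusted p = 0.0641), and the 1 member called was Rps28 (adjusted p = 0.03). The median log2 ratio of the members was 0.12 against -0.04 for all tested genes, and 60 of 82 lay above 0. A ratio above 0 on all 4 arrays was seen for 25 of the 82 and below 0 on all 4 for 3, where all genes gave 13.3% and 21.5%. Array centring in place of loess moved the median of all genes to -0.78, and that of the members then exceeded it by 0.02 rather than by 0.16. Because dyes were never swapped, a probe's dye preference and a true change look alike within a fraction.

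Rpl41 encodes a tiny, highly basic protein of the large subunit. Its probe (chr10:127951232-127951291 on mm8, minus strand) gave log2 ratios of 0.18, 0.57, 0.41 and 0.73 in the total RNA hybridisations. The heavy polysome ones read 0.57, 0.58, 0.54 and 0.58. All 8 values were above 0, as for 6.16% of all genes on every array, and the heavy polysome values were close together, array 1 included. The total RNA mean was 0.47 ± 0.23 (SD, n = 4; adjusted p = 0.0319, limma) and the heavy polysome mean 0.57 ± 0.02 (adjusted p = 0.00936). Removing total RNA array 2, 3 or 4, or polysome array 2 or 4, ended the total RNA call (adjusted p = 0.0616 to 0.119). With array centring its log2 ratio was -0.35, which was 0.43 above the median of all genes. The call in heavy polysome RNA was lost without array 4 of that fraction (adjusted p = 0.0536).

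Rps27l, a paralogue of the small subunit gene Rps27 known as a target of p53, was the other member with a ratio above 0 on all 8 arrays. Its total RNA ratios were 0.32, 0.31, 0.22 and 0.26, and its heavy polysome ratios 0.15, 0.44, 0.44 and 0.48. The heavy polysome mean of 0.38 ± 0.15 passed the test (adjusted p = 0.0257) and the total RNA mean of 0.28 ± 0.04 did not (adjusted p = 0.0945). Removing total RNA array 2, or polysome array 2, 3 or 4, ended that call (adjusted p = 0.0504 to 0.123). Its parent gene Rps27 had means of 0.26 ± 0.22 and 0.09 ± 0.55 in the same order.

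**Figure D2:**
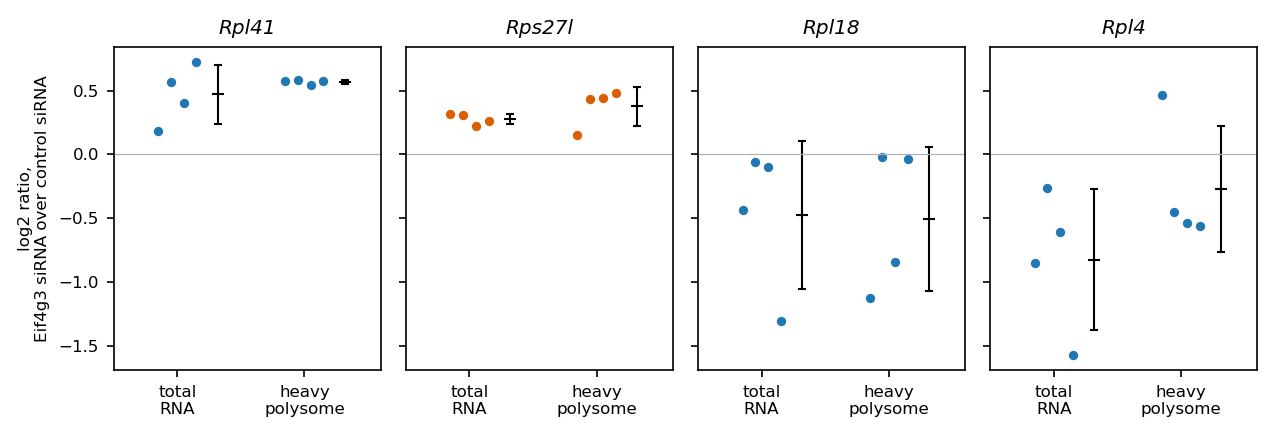
Knockdown ratios (log2, Cy5 over Cy3, vertical axis) for 4 members in each fraction. Points are single arrays, 1 to 4 from left to right, and bars mark the mean ± SD; Rpl41 and Rps27l are above 0 and Rpl18 below 0 on all 8 arrays, while Rpl4 is above 0 on heavy polysome array 1 only.

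In heavy polysome RNA Rpl41 and Rps27l were the 2 members called higher, and 0 were called lower, where 8.89% of all genes were called (4.86% higher, 4.02% lower). The median over the members was 0.00 against 0.02 for all genes, and 41 of 82 lay above 0. Without heavy polysome array 1 that median was 0.18 and 6 of 81 members were called higher, namely Rpl41, Rps26, Rps27l, Rps28, Rps29 and Rps7, where 8.75% of all genes were called. With arrays 2 and 4 as 1 sample, without polysome array 2 or 3, or without total RNA array 2, it was 1 member, Rpl41, and without polysome array 4 it was 0. Such changes in the count are not read as a change in the members. A ratio above 0 on all 4 heavy polysome arrays was seen for 4 of 82 and below 0 for 1, against 17.2% and 14.7% of all genes.

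The other extremes did not pass the test. The lowest member in total RNA was Rpl4, whose protein lines the exit tunnel of the large subunit, with -0.85, -0.27, -0.61 and -1.58 on arrays 1 to 4 (mean -0.83 ± 0.55, adjusted p = 0.064). In heavy polysome RNA it gave 0.46, -0.45, -0.54 and -0.56, so array 1 alone was above 0. The call for Rpl4 in total RNA was gained without heavy polysome array 1 (adjusted p = 0.0264), which is 1 of the arrays that set the estimate of the spread. Rpl18 was below 0 on all 8 arrays, as 7.84% of all genes were, with means of -0.47 ± 0.58 and -0.51 ± 0.57 (adjusted p = 0.278 and 0.217).

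Rpsa, a small subunit protein also known as the laminin receptor, had the highest mean in total RNA (0.70 ± 0.70, adjusted p = 0.147). Its arrays 1 to 4 gave -0.33, 0.88, 1.16 and 1.1, so 1 array was opposite in sign to the other 3. A second, dimmer Rpsa probe had 0.71 ± 0.26 there and passed when each probe was tested on its own (adjusted p = 0.0298). Rps28, which lies near the path of the mRNA on the small subunit, gave 0.45, 0.62, 0.47 and 0.57 in total RNA (adjusted p = 0.125). On heavy polysome arrays it gave -0.50, 0.73, 0.21 and 0.72. Rpl13a had 0.49 ± 0.28 in heavy polysome RNA (adjusted p = 0.121), and Rpl15 and Rpl7 the next lowest means after Rpl18, at -0.35 ± 0.57 and -0.29 ± 0.40 (adjusted p = 0.256 and 0.368).

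The P stalk, a flexible arm of the large subunit that recruits elongation factors, is made of Rplp0 at its base and of Rplp1 and Rplp2. In total RNA the mean log2 ratios were -0.05 ± 0.33 for Rplp0, 0.37 ± 0.62 for Rplp1 and 0.09 ± 0.49 for Rplp2. Their heavy polysome means were 0.06 ± 0.21, 0.15 ± 0.54 and -0.14 ± 0.64. None of the 6 values passed the test, and for Rplp1 and Rplp2 total RNA array 4 was opposite in sign to the other 3 arrays. Fau, the small subunit protein made as a fusion with a ubiquitin-like peptide, had 0.34 ± 0.38 and 0.18 ± 0.64. The paralogue Rpl22l1 had -0.04 ± 0.09 and 0.00 ± 0.43, where Rpl22 had 0.33 ± 0.06 and 0.03 ± 0.56. Rpl36al had 0.13 ± 0.17 and 0.01 ± 0.31 beside 0.21 ± 0.36 and 0.31 ± 0.44 for Rpl36a. Rpl7l1 had -0.18 ± 0.11 and -0.19 ± 0.59 beside -0.25 ± 0.48 and -0.29 ± 0.40 for Rpl7.

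Whether the ratio differed between the fractions was tested directly, heavy polysome minus total RNA, a contrast in which a dye bias equal on all arrays cancels. No member was called, nor was any of the 14485 genes (0%), by limma; at an unadjusted p under 0.05 there were 756 genes (5.22%) and 0 members. The member median was -0.12 against 0.06 for all genes, and with array centring both medians were 0.785. The lowest differences were those of Rpl17 (-0.48, 95% interval -1.08 to 0.12), Rpl13 (-0.44, -0.94 to 0.06) and Rpl32 (-0.43, -0.88 to 0.01). The highest were those of Rpl4 (0.55, -0.14 to 1.25), Rps19bp1 (0.35, -0.12 to 0.81) and Rpl3 (0.26, -0.15 to 0.67), all 6 with an adjusted p of at least 0.846. The median half-width of the 95% interval was 0.57, so smaller differences were not detectable for most members at this number of arrays.

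The second question was how each member divided between total and heavy polysome RNA, taken from the log2 signal of a single channel after normalisation between arrays. Fewer copies of a transcript on heavy polysomes and a larger share of it elsewhere cannot be told apart, since equal RNA mass was labelled, which makes each level a share among transcripts. In control siRNA cells 4 of 82 members were lower in heavy polysome RNA, namely Rps29, Rplp0, Rpl41 and Rps27l, and 0 were higher. Of all genes 2.33% were called, 2.32% lower and 0.0138% higher, a background against which 4 of 82 is read. Without total RNA array 3 or 4 or polysome array 2 or 4 it was 2, Rplp0 and Rps29, and without polysome array 1 it was 6 of 81, with Rps21 and Rps28 added, where 2.01% of all genes were called. These changed counts are not read as a change in the members. After loess and normalisation between arrays 67 of 82 lay within 0.5 of 0 on the log2 scale, 10 between -1 and -0.5 and 5 at or below -1. This spread rested on the normalisation, since the median of the members was -0.58 with scaling to each array's 75th percentile and -0.66 with the deposited processed signals.

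Rps29 encodes a small zinc-binding protein of the small subunit. Its probe (chr12:70076421-70077319 on mm8, minus strand) gave control siRNA log2 signals of 15.89, 15.65, 15.57 and 15.92 for total RNA against 14.60, 14.14, 14.54 and 14.42 for heavy polysomes. The groups did not overlap, and the difference was -1.33 (95% interval -1.70 to -0.97, adjusted p = 0.00493), a 2.52-fold lower signal. In Eif4g3 siRNA cells its signals were 16.08, 16.07, 15.74 and 16.34 against 13.86, 14.45, 15.16 and 14.84. These groups did not overlap either, with a difference of -1.48 (-2.11 to -0.85) that did not pass the test (adjusted p = 0.0861). The call in control cells held in all 19 alternatives. Among these, the restriction to core members left the fit unchanged, and the mean of probes left the value of this single-probe gene unchanged.

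Rplp0 gave control siRNA log2 signals of 14.52, 14.24, 14.35 and 14.54 for total RNA against 12.68, 13.15, 13.25 and 13.32 for heavy polysomes, again without overlap. Its difference was -1.32 (-1.72 to -0.92, adjusted p = 0.00744) in control cells and -1.21 (-1.63 to -0.78, adjusted p = 0.0543) in Eif4g3 siRNA cells. Another pair of probes, named Arbp in the files and assigned to Rplp0 by RefSeq, lay outside the rule and gave control differences of -0.27 and -0.64, neither of which passed (adjusted p = 0.745 and 0.219). The member probe lies at chr5:115821920-115821979 and these lie, in the order of their values, at chr5:115824445-115824504 and chr5:115822413-115822472 (mm8, plus strand). The value for Rplp0 therefore depended on the probe.

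Rpl41 gave control siRNA log2 signals of 16.27, 16.11, 16.32 and 16.26 for total RNA against 14.48, 14.96, 15.43 and 15.30 for heavy polysomes. In Eif4g3 siRNA cells they were 16.45, 16.68, 16.73 and 16.99 against 15.05, 15.54, 15.97 and 15.88. All heavy polysome values were below all total RNA values in both, with differences of -1.20 (-1.67 to -0.72, adjusted p = 0.0203) and -1.10 (-1.63 to -0.57, adjusted p = 0.111). Taking away total RNA array 3 or 4, or polysome array 2 or 4, ended the control call (adjusted p = 0.05 to 0.0885).

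Rps27l had control siRNA log2 signals of 14.53, 15.29, 14.60 and 14.86 for total RNA against 14.10, 13.69, 13.85 and 13.65 for heavy polysomes. The difference was -1.0 (-1.45 to -0.55, adjusted p = 0.0359), and in Eif4g3 siRNA cells -0.90 (-1.37 to -0.44, adjusted p = 0.135). It no longer passed in control cells when total RNA array 3 or 4, or polysome array 2, 3 or 4, was removed (adjusted p = 0.0611 to 0.141). Nor did it pass with processed signals, array centring or no filter on low signal (adjusted p = 0.19, 0.236 and 0.0624). Its parent Rps27 had -0.53 (-0.93 to -0.12, adjusted p = 0.229) and -0.69 (-1.32 to -0.06, adjusted p = 0.36).

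**Figure D3:**
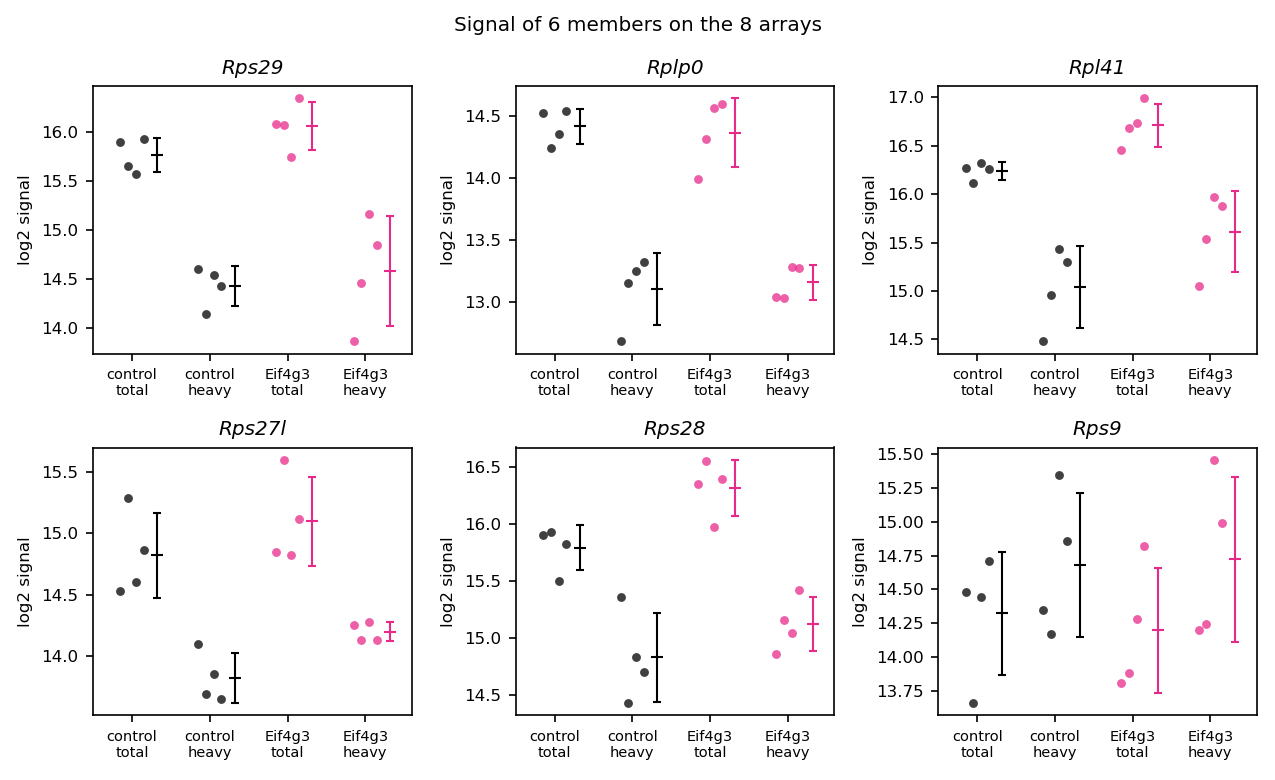
Log2 signal (vertical axis, a scale of its own in each panel) of 6 members in control siRNA (black) and Eif4g3 siRNA (pink) cells, in total and heavy polysome RNA. Points are arrays 1 to 4 from left to right and bars the mean ± SD; heavy polysome signals lie below all total RNA signals for the first 5 genes and overlap them for Rps9.

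Without overlap between fractions, the heavy polysome signal was below total RNA for 8 of 82 members in control cells (9.76%, where all genes gave 8.54%) and for 12 of 82 in Eif4g3 siRNA cells (14.6%, where all genes gave 5.40%). No member had all its heavy polysome signals above total RNA in either, where all genes gave 1.28% and 2.66%. Besides the genes above, the control cells gave Rpl13 (-0.21, -0.52 to 0.10), Rps21, Rps27 and Rps28. Rps28 had control log2 signals of 15.90, 15.93, 15.50 and 15.82 for total RNA against 15.36, 14.43, 14.83 and 14.70 for heavy polysomes, a difference of -0.96 (-1.44 to -0.48, adjusted p = 0.0539). The 3 Rps28 probes gave -0.91, -0.96 and -1.03. Rps21, another small protein of the small subunit, had -0.76 (-1.18 to -0.35, adjusted p = 0.0751) for its brightest probe and -1.78 and -1.91 for the other two.

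The 12 in Eif4g3 siRNA cells were Rpl10a, Rpl11, Rpl13, Rpl29, Rpl41, Rpl9, Rplp0, Rps21, Rps27l, Rps28, Rps29 and Rpsa. Rps28 gave 16.35, 16.55, 15.97 and 16.39 there for total RNA against 14.86, 15.16, 15.04 and 15.42 for heavy polysomes. Rps21 gave 15.79, 15.54, 15.49 and 15.88 against 14.17, 14.91, 14.29 and 14.93, a difference of -1.10 (-1.61 to -0.59, adjusted p = 0.106). Rpsa gave 14.24, 14.30, 14.87 and 14.16 against 13.19, 12.95, 14.01 and 13.42, a difference of -1.0 (-1.59 to -0.40, adjusted p = 0.178), and in control cells -0.72 (-1.41 to -0.03, adjusted p = 0.373). In both kinds of cell these differences were towards lower heavy polysome signal without passing the test.

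At the other end were small subunit genes, although none passed the test. Rps9 had control log2 signals of 14.48, 13.66, 14.44 and 14.71 for total RNA against 14.35, 14.17, 15.35 and 14.86 for heavy polysomes, with overlap. Its difference was 0.36 (-0.33 to 1.04, adjusted p = 0.741) and in Eif4g3 siRNA cells 0.53 (-0.23 to 1.28, adjusted p = 0.562). Rps10 had 0.24 (-0.28 to 0.75) and 0.05 (-0.71 to 0.80), and Rps3, which helps to form the entry of the mRNA channel, 0.21 (-0.15 to 0.56) and 0.14 (-0.45 to 0.72). Rps19bp1 had 0.26 (-0.54 to 1.06) in Eif4g3 siRNA cells. There the large subunit genes Rpl4 (0.21) and Rpl3 (0.20) lay above Rps10 and Rps3.

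In Eif4g3 siRNA cells 0 of 82 members passed the test, where 0.145% of all genes did; at an unadjusted p under 0.05 there were 20 members, all lower, beside 12.3% of all genes in either direction. The lowest were Rps29, Rplp0 and Rps28 (-1.19, -1.64 to -0.75, adjusted p = 0.0603). A separate fit of both channels together called 5 of 81 members lower, Rpl41, Rplp0, Rps27l, Rps28 and Rps29, where 1.64% of all genes were called. That 4 members passed in control cells and 0 here does not show a difference between the cells, which is the contrast tested above and had no call. Rpl39 had wide intervals in both, at -1.19 (-2.12 to -0.26, adjusted p = 0.239) and -1.14 (-2.43 to 0.15, adjusted p = 0.458).

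**Figure D4:**
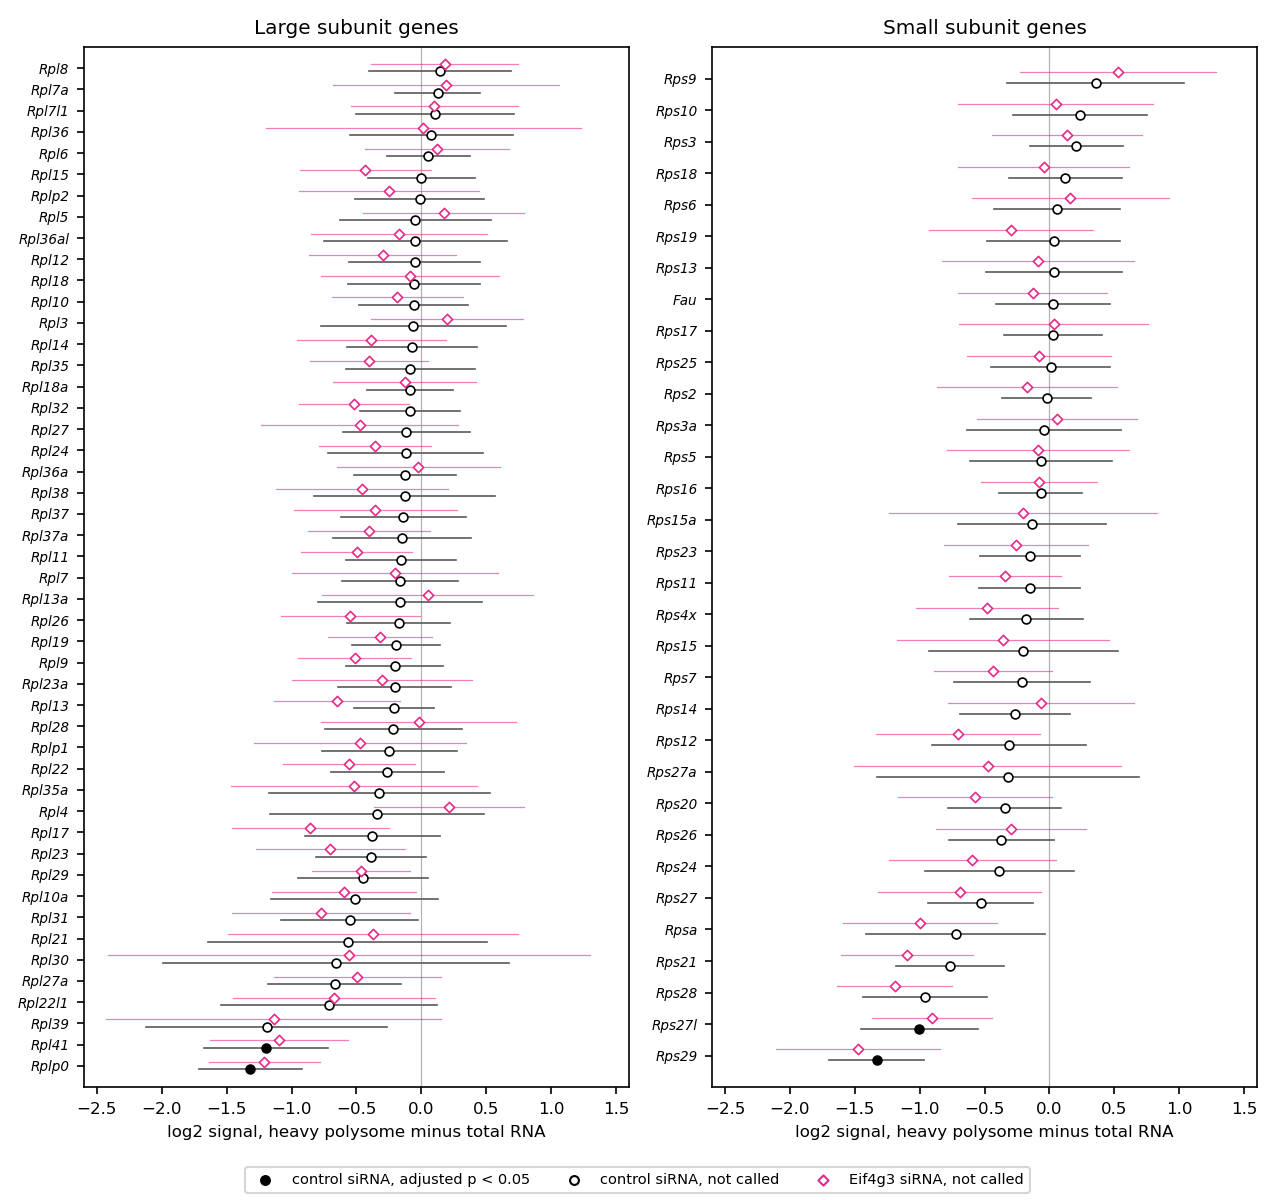
Heavy polysome minus total RNA log2 signal (horizontal axis) of tested large and small subunit genes, ordered by the value in control siRNA cells. Circles are control siRNA and diamonds Eif4g3 siRNA cells with 95% intervals, and filled circles are the 4 members called; 42 of 48 large and 22 of 33 small subunit genes tested lie below 0 in control siRNA cells, and Rps19bp1 and 1 small subunit gene above 0 are not drawn.

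Over the members the median difference was -0.15 in control cells and -0.35 in Eif4g3 siRNA cells, where all genes gave -0.02 and 0.01. Below 0 were 65 of 82 (79.3%) in each, against 53.5% and 48.2% of all genes. The size rested on the normalisation. Relative to the median of all genes the control value was -0.13 with loess and normalisation between arrays. It was -0.58 with scaling to each array's 75th percentile in place of both, and -0.57 with the deposited processed signals. In Eif4g3 siRNA cells these were -0.36, -0.48 and -0.62. The sign was the same in the 3 settings.

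Large and small subunit genes were compared by the medians of their fitted values. The subunit medians, large then small, were 0.10 and 0.17 for the total RNA ratio, -0.06 and 0.09 for the heavy polysome ratio and -0.11 and -0.15 for the difference between the fractions. For the total RNA ratio 33.3% of large and 15.2% of small subunit genes lay below 0, against 58% of all genes. For the heavy polysome ratio these shares were 64.6% and 30.3%, against 46.8%. Heavy polysome minus total RNA gave -0.16 and -0.15 in control cells and -0.39 and -0.26 in Eif4g3 siRNA cells. Large minus small for the knockdown ratio was 0.09, -0.07, -0.06 and -0.21 over the total RNA arrays and 0.10, -0.0011, -0.49 and -0.05 over the polysome arrays. The mean was -0.06 ± 0.12 (SD, n = 4) and -0.11 ± 0.26, so the spread between arrays exceeded the gap. Without heavy polysome array 3 the gap between the subunit medians in heavy polysome RNA went from -0.15 to -0.02. In control cells 42 of 48 large subunit genes and 22 of 33 small subunit genes lay below 0, and the highest large subunit gene, Rpl8, was at 0.14. Large minus small was also taken from the median log2 signal on each array. In control cells it was -0.42 ± 0.08 (SD, n = 4) for total RNA and -0.15 ± 0.14 for heavy polysome RNA. In Eif4g3 siRNA cells it was -0.36 ± 0.21 and -0.23 ± 0.37. The smaller gap in heavy polysome RNA was not tested. It lies between medians of levels, and the medians of the gene by gene differences did not show it. These were -0.16 (large) and -0.15 (small) in control cells. In Eif4g3 siRNA cells they were -0.39 and -0.26, with the larger fall in the large subunit.

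The remaining P stalk genes and Fau had intervals between fractions that included 0. Heavy polysome minus total RNA was -0.25 (-0.77 to 0.27) for Rplp1, -0.01 (-0.51 to 0.48) for Rplp2 and 0.03 (-0.41 to 0.47) for Fau in control cells. In Eif4g3 siRNA cells it was -0.47 (-1.29 to 0.35), -0.25 (-0.94 to 0.45) and -0.13 (-0.70 to 0.45). The paralogue Rpl22l1 had -0.71 (-1.54 to 0.12) in control cells beside -0.26 (-0.70 to 0.17) for Rpl22, and Rpl7l1 had 0.10 (-0.51 to 0.71) beside -0.16 (-0.61 to 0.29) for Rpl7. Rpl36al had -0.05 (-0.75 to 0.66) beside -0.13 (-0.52 to 0.27) for Rpl36a. All these intervals include 0, and differences between a paralogue and its parent were not tested.

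Probes of the same member were compared, since the brightest stood for the gene. Of the 38 names with several tested probes, the control polysome difference varied by over 0.5 in 7 and by over 1 in 1, Rps21, and differed in sign in 9. Rpl31 had knockdown ratios of 0.17 ± 0.21 and -0.05 ± 0.46, total then heavy polysome, with its brightest probe. Its dimmer probe gave 0.63 ± 0.18 and 0.91 ± 0.11 and passed both tests on its own (adjusted p = 0.0121 and 0.00237).

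Other lists around the ribosome were read beside the members. Of 26 tested genes known for the same 5′ tract but coding for other proteins or RNAs, 0 were called in either knockdown comparison. In control cells 2 were lower in heavy polysome RNA, where 2.32% of all genes were, the snoRNA host gene Gas5 (-2.73, adjusted p = 3.85e-04) and the nuclear import receptor Ipo7 (-1.11, adjusted p = 0.0137), and in Eif4g3 siRNA cells Gas5 alone (-2.87, adjusted p = 0.00508). Of 59 ribosome biogenesis genes 5 were lower and 0 higher in total RNA (all genes 2.69% and 1.67%), among them Rrp1 (-0.87 ± 0.54, adjusted p = 0.0282), Nop10 (-0.75 ± 0.43, adjusted p = 0.048) and Pes1 (-0.74 ± 0.33, adjusted p = 0.0196), all with roles in making ribosomal RNA or the large subunit. In heavy polysome RNA 3 were lower (Nop10, Utp20 and Heatr1) and 2 higher (Ltv1 and Rrs1), where all genes gave 4.02% and 4.86%. The biogenesis median was -0.12 in both, and heavy polysome minus total RNA it was 0.17 in control and 0.24 in Eif4g3 siRNA cells with 0 calls.

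Of 16 tested genes listed for RNA polymerase I 0 were called in total RNA. Polr1d and Polr2k were higher in heavy polysome RNA, where 4.86% of all genes were (0.43 ± 0.27 and 0.48 ± 0.18, limma adjusted p = 0.0486 and 0.0271). Polr1d, Polr2k and Polr2f were lower in heavy polysome than in total RNA of control cells (-1.29, -1.35 and -1.12), where 2.32% of all genes were. Of 78 mitochondrial ribosomal protein genes, which serve a separate ribosome, 1 was higher in total RNA, where 1.67% of all genes were (Mrps24, 0.47 ± 0.14, adjusted p = 0.0367). In heavy polysome RNA Mrps24 was higher and Mrpl58 and Mrps31 were lower (all genes 4.86% and 4.02%). In control cells 4 of the 78 were lower in heavy polysome RNA (Mrpl42, Mrps21, Mrps24 and Mrpl30), where 2.32% of all genes were, and in Eif4g3 siRNA cells 0 were called.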

How the data were processed

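RNA of 4 total RNA and 4 heavy polysome arrays was labelled from 200 ng, per the labels' protocols. Per the file headers, Agilent Feature Extraction 10.7.3.1 wrote the tables of 7 arrays and 10.5.1.1 that of the other, with probe coordinates on mm8. The deposited scanner tables give spot, background and processed signals as intensity, plus a log10 ratio (Cy5 to Cy3). Values in the deposited series matrix are log2 ratios that lay within 0.01 of those recomputed from processed signals on 99.5% or more of the probes of each array, without centring (array medians -0.21 to 0.30).

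Mean signals were corrected with normexp (offset 50), flagged spots (131 to 241 per array) left out, ratios normalised by loess (span 0.3), and channels between arrays by Aquantile. The brightest member probe stood for its gene. Testing required signal well above background, in either dye, on at least 3 arrays of a fraction and at least 3 values per fraction, which left 14485 genes. RefSeq records named 33026 of 41174 probes (80.2%). Limma fitted all genes (two-sided tests, Benjamini-Hochberg adjusted p under 0.05); the ratio fit used both fractions, each polysome fit 1 channel. A single value of a member was missing from the ratios and was left out of its mean. The table of total RNA array 2 gives other names to 1989 spots, and there the rule takes 139 probes, with 2 more for Rpl34 and 1 fewer for Rps12; names of the other arrays were used.

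Members, gene lists and tests were chosen with earlier results of these data known. Named members are those called, the 3 highest and 3 lowest of each comparison, the P stalk, Rpsa, Fau, and paralogues with their parents; list genes named are called ones, at most 3 a direction. A member and a marker that this rule or the marker list would name are not reported here. Rps21, Rpl39, Rpl31, Rpl8, Rps26 and Rps7 and the genes listed as not overlapping were named after their values were seen. Deviations of arrays with the same replicate number correlated between fractions at -0.02, 0.17, -0.11 and -0.30. With so few arrays this cannot show whether they shared a culture, and the main fits did not pair them. The number of arrays limits the precision. Tests were tried on simulated data. R 4.3.3, limma 3.58.1, Python 3.11.15 and matplotlib 3.10.9 were used.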

Additional observations from a re-analysis of the deposited data

Results flagged for a closer look

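Of 124 groups of 4 arrays checked (subunit medians and named members, ratios and signals), 4 held an array whose gap to the nearest of the others exceeded Dixon's 95% critical value as a share of the range, and chance flags about 1 in 20. The median log2 ratio of small subunit genes was -0.63 on heavy polysome array 1 and 0.28 to 0.32 on the other heavy polysome arrays. On the same array Rpl4 had a ratio of 0.46 against -0.56 to -0.45 on the others, and Rps27l 0.15 against 0.44 to 0.48. The large minus small median of the Eif4g3 siRNA signal was -0.78 on heavy polysome array 3 and -0.05 to -0.03 on the other heavy polysome arrays.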

How the results depend on the processing

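Across all alternatives tried the control polysome call of Rps29 stayed, and 0 members were called for the difference between fractions. Members called in total RNA (main 1) were 0 with processed signals, array centring, the deposited log2 table, or heavy polysome arrays 2 and 4 as 1 sample; 3 with the mean of probes, each probe alone, or slide as a random block; and 2 with probes above background on all arrays. With the total RNA arrays alone the 1 member was Rps28 in place of Rpl41. In heavy polysome RNA (main 2) they were 0 with array centring, 4 with the slide block, and 1 with probes above background on all arrays, core members only, the fraction alone, or arrays 2 and 4 as 1. In control polysome RNA (main 4) they were 2 with arrays 2 and 4 as 1, and Rps27l was not among the 3 called with processed signals, array centring or no filter. For Eif4g3 siRNA polysome RNA (main 0) they were 5 with array centring or both channels in one fit, 2 with processed signals, the mean of probes or the slide block, and 1 with each probe alone. The share of all genes called moved as well, for instance here from 0.145% to 1.64% with both channels in one fit. These counts are therefore not read as results about the members alone. Array centring gave member medians of -0.757 (total), 0.785 (difference), -0.583 (control polysome) and -0.721 (Eif4g3 polysome), and turned Rpl41 in total RNA to -0.35; processed signals gave -0.657 and -0.727 for the same polysome medians. The causes of these shifts were not tested. With the replicate number as a block, which pairs samples only by number, 1 member (Rps29) was called in control polysome RNA, the difference between fractions kept 0, and Rplp0 had an adjusted p of 0.0553. Leaving out 1 array in turn gave 0 to 5 members called in total RNA (median 0.0667 to 0.189), 0 to 6 in heavy polysome RNA (-0.103 to 0.184), 0 for the difference (-0.196 to 0.0878), 2 to 6 in control polysome RNA (-0.261 to -0.0791) and 0 to 1 in Eif4g3 siRNA polysome RNA (-0.389 to -0.266). Large minus small ranged from -0.135 to -0.0267, -0.199 to -0.0217, -0.134 to 0.131, -0.0640 to 0.0458 and -0.194 to 0.0160 in the same order. A loess curve drawn without the members, added after the data were seen, moved no count of calls by over 1.5 times; arrays 2 and 4 as 1 was added then too.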
